A study of Mus musculus with 2 samples.

Results

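The LDL receptor family in these data comprised 9 genes, Lrp1, Lrp1b, Lrp2, Vldlr, Lrp8, Lrp4, Lrp5, Lrp6 and Sorl1, of 55536 mouse genes in the deposited gene tables. They were taken by symbol from the transcript identifiers and linked by gene identifier to the gene and transcript tables of both libraries, and all 9 symbols were found. Total RNA was sequenced from tissue labelled as a layer of the hippocampus of female 5xFAD/CAST mice, adults aged 8 to 10 months. Both libraries belong to this 1 group, with no control group analysed here. The starting amount was 300 ng of RNA per library, and an ERCC mix served as spike-in. The labels number them as biological replicates 1 and 2, with a biosample record each and a shared donor record. Separate animals are therefore not settled by the labels, and every SD (n = 2) is the spread between these samples, which may be technical.

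5xFAD mice carry human transgenes with familial Alzheimer mutations, under the neuronal Thy1 promoter, and develop amyloid plaques. CAST names an inbred strain derived from wild mice. The labels give both libraries the same strain, so no value here measures the effect of the transgenes. Sequences and coordinates are those of the mm10 reference with GENCODE M21 transcripts, and each sequence is printed 5′ to 3′ on the strand of its gene. No CAST sequence was used, and a CAST allele can differ from a printed base.

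Receptors of this family are single-pass membrane proteins whose extracellular part combines LDL receptor class A repeats, which bind ligands, with beta-propeller and EGF-like modules, which help release cargo in acidic endosomes. Short motifs in their cytoplasmic tails bind adaptors that either drive endocytosis or start a signal. In brain the family is known for uptake of apolipoprotein E particles, for the reelin signal that guides neurons and tunes synapses, for Wnt and agrin signalling, and for trafficking of the amyloid precursor protein.

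The libraries held 27816845 expected counts for replicate 1 and 32316737 for replicate 2. Markers of hippocampal tissue were present, with 8 of 8 excitatory neuron markers, 8 of 8 astrocyte markers and 8 of 8 microglia markers detected, which means 1 TPM or more in each library. TPM is a transcript abundance scaled for length and library size. Markers of other cell types differed between the libraries. Of 12 choroid plexus markers 7 were detected, and all 12 were higher in replicate 1, with a summed TPM of 461 in replicate 1 and 162 in replicate 2, and all 8 ependymal markers were higher there too, at 28.2 in replicate 1 and 15.9 in replicate 2. Oligodendrocyte markers summed to 2039 TPM in replicate 1 and 1656 TPM in replicate 2. Their part in any difference between the libraries described here was not tested. In bulk tissue, fewer cells of a type and less RNA per cell cannot be told apart.

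Of the 9 receptor genes, 8 were detected and Lrp2 was not. Their levels summed to 354 TPM in replicate 1 and 360 TPM in replicate 2, and the mean was 357 ± 4.00 TPM. Lrp1 alone held 41.0 ± 0.389% of that sum, and Lrp1 with Sorl1 held 61.3 ± 0.529%. Of all expected counts assigned to mouse genes, the family had 0.192% in replicate 1 and 0.197% in replicate 2. The median of the members was 21.8 TPM, against a median of 15.3 TPM over the 13251 detected nuclear protein-coding genes. Above that median lay 6 of the 9 members, and Lrp4, Lrp5 and Lrp2 lay below it.

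The order by mean TPM was Lrp1, Sorl1, Lrp8, Lrp1b, Lrp6, Vldlr, Lrp4, Lrp5 and Lrp2. Every neighbouring pair in this order differed by more than the sum of the pair's SDs, except Lrp6 and Vldlr. These differed by 1.09 TPM in the mean with a summed SD of 2.04 TPM, and their ranges overlapped. For Lrp8 and Lrp1b the deposited credibility bounds overlapped in replicate 2, with 35.3 to 43.4 TPM for Lrp8 and 32.2 to 35.8 TPM for Lrp1b. Protein-coding models held 46.4% of the Lrp8 TPM and 82.4% of the Lrp1b TPM. The order is thus that of all annotated models together. The same order came out of the second deposited quantification, which has the layout of the program kallisto. Its TPM was lower than the gene table's for 7 of the 9 members, by most for Lrp1, at 0.749 of the gene-table level. The median of this ratio over the detected nuclear coding genes was 0.952.

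**Figure D1:**
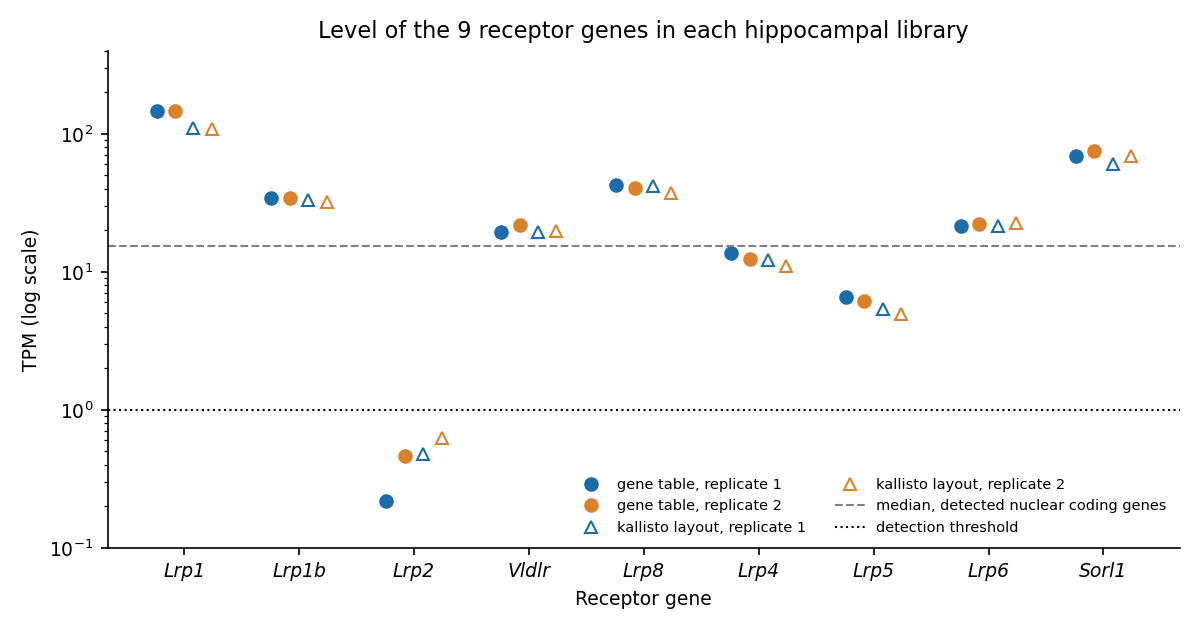
TPM of each receptor gene (log axis) in replicate 1 (blue) and replicate 2 (orange), from the gene table (filled circles) and the kallisto layout (open triangles). Lrp1 stands highest, with 146 TPM in replicate 1 and 147 TPM in replicate 2 in the gene table, and Lrp2 is the only member under the detection threshold of 1 TPM (dotted line). The dashed line is the median of detected nuclear coding genes, 15.3 TPM.

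Lrp1 is a large endocytic and signalling receptor for apolipoprotein E, alpha-2-macroglobulin and proteases, made by neurons and glia, and Lrp1b is its close relative. Lrp2, or megalin, is the uptake receptor of absorptive epithelia, in brain of choroid plexus and ependyma. The tails of all 3 carry the motif NPxY, asparagine, proline, any residue and tyrosine, which binds adaptors with a phosphotyrosine-binding domain. Among the last 200 codons of the longest complete coding sequence, Lrp1, Lrp1b and Lrp2 had 2 copies each. Of 21733 genes searched in the same way, 308 had at least 1 copy, or 1.42%. In Lrp1 the copies began at codons 4471 and 4505 of 4545, and in Lrp1b at codons 4492 and 4559 of 4599. They are shown because these sites tie the receptors to endocytic adaptors. All lie on the minus strand, and capitals mark the codons of NPxY.
Lrp1 copy 1, chr10:127539299-127539328: gaaattggaAACCCTACCTACaagatgtat
Lrp1 copy 2, chr10:127539055-127539084: aacttcaccAACCCAGTGTATgccacgctc
Lrp1b copy 1, chr2:40600320-40600349: gaaatcggcAATCCATCATACaatatgtat
Lrp1b copy 2, chr2:40597039-40597068: aattactccAACCCAGTATATgcaaaatta
Lrp2 copy 1, chr2:69430296-69430325: atatttgaaAACCCAATGTATgcagccaaa

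Lrp1 (ENSMUSG00000040249.15, chr10:127538161-127621148, minus strand) measured 146 TPM in replicate 1 and 147 TPM in replicate 2, from 23752 expected counts in replicate 1 and 27886 in replicate 2. The replicates nearly coincided, with an SD of 0.255 TPM around a mean of 146 TPM, and only 467 of the 13251 detected nuclear coding genes were higher. This level depends on how the transcripts are weighed. The full-length transcript Lrp1-201 (14888 bases, 89 exons) held 95.4 ± 0.0750% of the expected counts of the gene but only 54.1 ± 0.957% of its TPM. Its own level was 78.1 TPM in replicate 1 and 80.2 TPM in replicate 2.

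Most of the rest of the Lrp1 TPM sat on short models with few counts. Lrp1-205, a 679-base model annotated as subject to nonsense-mediated decay, had 26.3 TPM in replicate 1 and 22.6 TPM in replicate 2. Lrp1-208, a 763-base retained-intron model, had 26.2 TPM in replicate 1 and 31.6 TPM in replicate 2. Only 70 bases of Lrp1-205 and 35 bases of Lrp1-208 lie outside the exons of Lrp1-201, and the exons of Lrp1-208 contain both NPxY sites printed above. The kallisto layout gave Lrp1-205 a similar level, 29.6 TPM in replicate 1 and 25.9 TPM in replicate 2. It gave Lrp1-208 only 0.963 TPM in replicate 1 and 6.03 TPM in replicate 2. The level of Lrp1-208 thus differed between the quantifications by more than it differed between the libraries.

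Lrp1b (ENSMUSG00000049252.17) spans 2058 kb at chr2:40595246-42653624 on the minus strand. Its level was 34.4 TPM in replicate 1 and 34.6 TPM in replicate 2, from 5622 expected counts in replicate 1 and 6484 in replicate 2, so its mean of 34.5 ± 0.141 TPM was also tight. Lrp1 stood at 4.25 ± 0.010 times the TPM of Lrp1b in the gene table and 3.37 ± 0.0289 times in the kallisto layout. Between the full-length models Lrp1-201 and Lrp1b-201 the ratio was larger, 6.19 ± 0.127 in the gene table's layout and 7.15 ± 0.0393 in that of kallisto. The full-length Lrp1b-201 held 37.1 ± 0.209% of the TPM and 71.9 ± 0.632% of the counts. Lrp1b-211 (14.9 ± 0.314% of TPM) and Lrp1b-208 (10.5 ± 0.219% of TPM) lie in the exons of Lrp1b-201 except for 0 and 1 bases.

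Models that start at the 5′ end of Lrp1b and have sequence outside the exons of Lrp1b-201 took a further part. Lrp1b-207, a 2911-base model with 2 exons at the start of the gene, had 5.11 TPM in replicate 1 and 5.06 TPM in replicate 2, and Lrp1b-203, annotated as a retained intron, had 4.64 TPM in replicate 1 and 4.09 TPM in replicate 2. Of their bases, 2630 in Lrp1b-207 and 1912 in Lrp1b-203 lie outside the exons of Lrp1b-201. In the kallisto layout the same models had 4.82 TPM in replicate 1 and 4.96 TPM in replicate 2 for Lrp1b-207, and 3.77 TPM in replicate 1 and 3.50 TPM in replicate 2 for Lrp1b-203. For these models, which lie mostly outside the exons of Lrp1b-201, both quantifications and both libraries gave similar levels. Their overlap with the other Lrp1b models was not computed.

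Lrp2 (ENSMUSG00000027070.14, chr2:69424340-69586065, minus strand) was the lowest member, with 0.220 TPM in replicate 1 and 0.460 TPM in replicate 2. Its expected counts were 67 in replicate 1 and 83 in replicate 2, so the gene was counted in both libraries but stayed below 1 TPM. The gap between the TPM values came from a short model. The full-length Lrp2-201 had 0.220 TPM in replicate 1 and 0.240 TPM in replicate 2, while the 392-base Lrp2-204 was listed at 0 in replicate 1 and at 0.220 TPM in replicate 2, from 1.47 expected counts. In scaled counts, Lrp2 had a log2 ratio of replicate 1 over replicate 2 of -0.11, with a 95% counting interval of -0.60 to 0.36.

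Partners of Lrp2 were also low. Of 4 listed, Dab2, an endocytic adaptor, had 8.28 TPM in replicate 1 and 6.87 TPM in replicate 2, and Amn, a subunit of the cubilin complex, had 3.01 TPM in replicate 1 and 3.75 TPM in replicate 2. Folr1, a folate receptor and a choroid plexus marker, had 5.08 TPM in replicate 1 and 0.700 TPM in replicate 2. The remaining gene had a TPM under 1 in both libraries. Ttr, the choroid plexus transthyretin gene, had 426 TPM in replicate 1 and 146 TPM in replicate 2. Folr1 and Ttr were therefore higher in replicate 1, and the estimate for Lrp2 was not, although its interval reaches above 0.

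Several ligands of these receptors were abundant messages. Of 18 listed secreted ligands 15 were detected, with a median of 9.38 TPM. Apoe, apolipoprotein E, had 2010 TPM in replicate 1 and 1920 TPM in replicate 2, and Clu, clusterin, had 805 TPM in replicate 1 and 736 TPM in replicate 2. Psap, prosaposin, had 713 TPM in replicate 1 and 731 TPM in replicate 2. The ligand with the largest difference between the libraries was A2m, alpha-2-macroglobulin, with 9.47 TPM in replicate 1 and 5.47 TPM in replicate 2, and its log2 ratio on scaled counts was 0.79. Lrpap1, the chaperone known as receptor-associated protein, which keeps ligands off the receptors in the endoplasmic reticulum, had 71.0 TPM in replicate 1 and 67.8 TPM in replicate 2.

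Vldlr and Lrp8 (apolipoprotein E receptor 2) are the receptors of reelin. Reelin clusters them, and the adaptor Dab1 is then phosphorylated by Src-family kinases while bound to their NPxY site. Each had 1 copy of NPxY among its last 200 codons, on the plus strand, and the windows are shown to set this adaptor site of both receptors side by side, with the motif in capitals.
Vldlr, chr19:27247931-27247960: aactttgacAATCCTGTGTACttgaagacc
Lrp8, chr4:107869052-107869081: aatttcgacAACCCAGTGTACaggaaaacg

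Vldlr (ENSMUSG00000024924.14, chr19:27216484-27254231, plus strand) had 19.6 TPM in replicate 1 and 21.8 TPM in replicate 2, from 2319 expected counts in replicate 1 and 2877 in replicate 2. Lrp8 (ENSMUSG00000028613.14, chr4:107802261-107876840, plus strand) had 42.4 TPM in replicate 1 and 40.2 TPM in replicate 2, from 2763 expected counts in replicate 1 and 3289 in replicate 2. By TPM over all annotated models, Lrp8 was higher in each library. It stood at 2.01 ± 0.225 times the TPM of Vldlr in the gene table and 2.02 ± 0.162 times in the kallisto layout. Protein-coding models held 46.8% of the Lrp8 TPM in replicate 1 and 46.0% in replicate 2. For Vldlr they held 91.8% in replicate 1 and 87.2% in replicate 2. Most of the Lrp8 TPM was thus on models of other classes, and the ratio was not computed for protein-coding models alone. The expected counts of Lrp8 and Vldlr were closer, since Lrp8 was assigned to shorter transcripts. Its mean effective length was 3315 bases in replicate 1 and 3648 bases in replicate 2. For Vldlr it was 6025 bases in replicate 1 and 5894 bases in replicate 2.

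All 10 genes of the reelin signalling list were detected, with a median of 41.6 TPM. Pafah1b1, the Lis1 gene of the dynein pathway, had 137 TPM in replicate 1 and 143 TPM in replicate 2. Dab1 had 59.3 TPM in replicate 1 and 58.7 TPM in replicate 2, and Src had 53.2 TPM in replicate 1 and 54.6 TPM in replicate 2. Reln, which encodes the ligand and is given here for its role and not by the rule for named genes, had 18.0 TPM in replicate 1 and 15.5 TPM in replicate 2. Of the 10 log2 ratios of this list, 1 was above 0, and their median was -0.07.

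Both receptors are known to be spliced at cassette exons, exons that a transcript either includes or skips. The inclusion of each was computed as the TPM of transcripts with the exon as a percentage of the TPM of transcripts that span it, with or without the exon. Such shares rest on the transcript models and not on junction reads. Of the Vldlr transcripts, only Vldlr-207 carries the long 3′ end, 5091 bases after the stop codon, and of the Lrp8 transcripts only Lrp8-202, which has an incomplete 5′ end, carries 4529 bases after the stop. Only reads from the part of these 3′ ends that lies beyond the ends of the other models count towards Vldlr-207 and Lrp8-202 alone.

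In Vldlr, exon 4 of Vldlr-207 (123 bases) codes for the third ligand-binding repeat and holds 6 cysteine codons, the number of a class A repeat. Exon 16 (84 bases) codes for the serine- and threonine-rich region that carries O-linked sugars, with 10 serine or threonine codons among 27 whole codons. Both are shown because their use separates the Vldlr isoforms. Both are on the plus strand, and capitals mark the cysteine codons in exon 4 and the serine and threonine codons in exon 16.
Vldlr exon 4, chr19:27236240-27236362: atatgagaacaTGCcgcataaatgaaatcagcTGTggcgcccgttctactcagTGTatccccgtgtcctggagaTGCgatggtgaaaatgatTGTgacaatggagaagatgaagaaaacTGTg
Vldlr exon 16, chr19:27246593-27246676: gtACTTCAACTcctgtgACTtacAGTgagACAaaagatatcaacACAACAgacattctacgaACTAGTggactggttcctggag

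The repeat exon was present in 74.7% of the Vldlr TPM that spans it in replicate 1 and 83.6% in replicate 2. The kallisto layout gave 75.8% in replicate 1 and 78.8% in replicate 2. The O-linked sugar exon was present in 61.6% in replicate 1 and 60.9% in replicate 2, and by the kallisto layout in 59.6% in replicate 1 and 59.1% in replicate 2. TPM was assigned to models with and without the sugar exon, and this share varied less between libraries and quantifications than that of the repeat exon. All of the TPM with the sugar exon was on Vldlr-207, with 11.4 TPM in replicate 1 and 12.2 TPM in replicate 2, and reads from the long 3′ end of that model say nothing of the exon. The transcripts without it ended before the end of Vldlr-207. Vldlr-202, which lacks both exons, had 4.09 TPM in replicate 1 and 2.47 TPM in replicate 2. Vldlr-208, with the repeat exon alone, had 2.27 TPM in replicate 1 and 3.58 TPM in replicate 2. Most of the TPM with the repeat exon was on Vldlr-207 too, 11.4 of 14.49 TPM in replicate 1 and 12.2 of 17.62 TPM in replicate 2. The limit of its long 3′ end therefore holds for both exons. Vldlr-201, a decay model with the repeat exon, had 0.780 TPM in replicate 1 and 1.81 TPM in replicate 2. The deposited posterior SD of its count was 47.1 around 48.3 counts in replicate 1 and 63.6 around 128 counts in replicate 2.

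In Lrp8, 4 cassette exons were followed. A 381-base exon at chr4:107846239-107846619 codes for 3 ligand-binding repeats, with 18 cysteine codons. A 123-base exon codes for a further repeat. A 225-base exon at chr4:107861133-107861357 codes for the O-linked sugar region, with 29 serine or threonine codons among 74. A 177-base exon adds a proline-rich insert of 59 codons to the cytoplasmic tail, which in mouse neurons is known to tie the receptor to PSD-95 and JIP scaffolds. The repeat exon and the tail insert are shown, both on the plus strand, because both were included in an intermediate share of transcripts. Capitals mark the 6 cysteine codons of the repeat and the 9 proline codons of the insert.
Lrp8 repeat exon, chr4:107848281-107848403: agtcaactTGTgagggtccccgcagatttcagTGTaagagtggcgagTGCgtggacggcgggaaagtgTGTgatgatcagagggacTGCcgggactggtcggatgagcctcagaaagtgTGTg
Lrp8 tail insert exon, chr4:107870012-107870188: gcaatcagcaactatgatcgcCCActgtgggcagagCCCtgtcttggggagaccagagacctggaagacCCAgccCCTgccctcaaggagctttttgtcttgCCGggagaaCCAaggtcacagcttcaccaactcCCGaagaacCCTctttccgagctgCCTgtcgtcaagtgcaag

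The 3-repeat exon was present in 28.3% of the Lrp8 TPM that spans it in replicate 1 and 33.7% in replicate 2. The further repeat was present in 40.4% in replicate 1 and 48.4% in replicate 2, with higher values in the kallisto layout, 49.0% in replicate 1 and 56.2% in replicate 2. The tail insert was present in 43.4% in replicate 1 and 46.5% in replicate 2, and by the kallisto layout in 46.7% in replicate 1 and 48.5% in replicate 2. Part of the TPM with these exons was on Lrp8-209, a model annotated as a decay target. For the tail insert this was 4.78 of 10.8 TPM in replicate 1 and 8.72 of 12.7 TPM in replicate 2. For the 3-repeat exon it was 4.78 of 8.19 TPM in replicate 1 and 8.72 of 10.8 TPM in replicate 2. For the further repeat it was 4.78 of 11.69 TPM in replicate 1 and 8.72 of 15.55 TPM in replicate 2. The further repeat was also on Lrp8-212, a 797-base model without a coding sequence. That model had 4.15 TPM in replicate 1 and 4.79 TPM in replicate 2. In the kallisto layout it had 7.81 of 15.7 TPM with this exon in replicate 1 and 8.51 of 19.2 TPM in replicate 2. In both libraries TPM was thus assigned to models with and without each of these 3 exons. For the tail insert, nearly all of the TPM without the exon was on Lrp8-202. It had 13.9 of 14.1 TPM in replicate 1 and 14.5 of 14.6 TPM in replicate 2. Lrp8-202 also held most of the TPM without each repeat exon. For the 3-repeat exon its part was 66.7% in replicate 1 and 68.0% in replicate 2 (kallisto layout 55.6% and 60.0%). For the further repeat its part was 80.3% in replicate 1 and 87.3% in replicate 2 (kallisto layout 74.6% and 87.1%). Reads from the long 3′ end of Lrp8-202 say nothing of any of these exons. The O-linked sugar exon differed from them, with 100% inclusion in both libraries and, in the kallisto layout, 98.2% in replicate 1 and 99.3% in replicate 2. Only 1 annotated model, Lrp8-206, skips this exon. Lrp8-202 is here among the models with the exon, with 13.9 of 24.8 TPM in replicate 1 and 14.5 of 27.4 TPM in replicate 2. The contrast with the other exons therefore rests in part on which models are annotated.

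**Figure D2:**
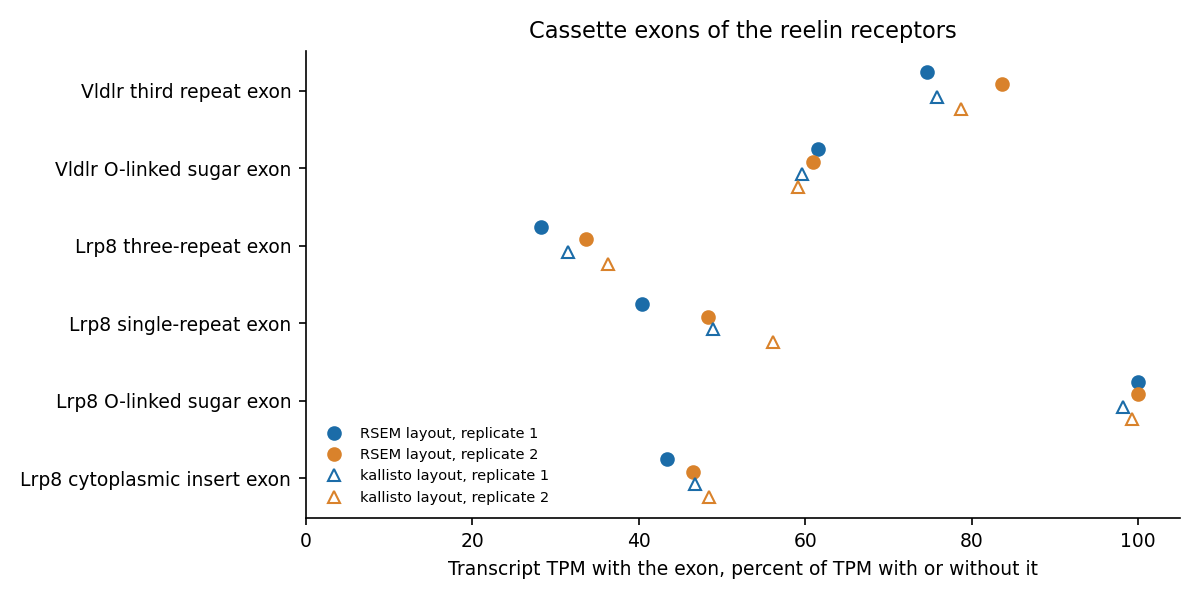
Inclusion of 6 cassette exons (x axis, percent of the TPM of transcripts spanning the exon) in replicate 1 (blue) and replicate 2 (orange), from the RSEM-layout (filled circles) and kallisto-layout (open triangles) transcript tables. The Lrp8 sugar exon lies at 98.2% or more in each, against 28.3% to 36.3% for the Lrp8 3-repeat exon.

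Lrp8 was the member with the smallest share of TPM on protein-coding models, 46.4 ± 0.536%, against a median of 82.4% over the 9 members and 88.2% over detected nuclear coding genes. Its leading model, Lrp8-202, held 34.4 ± 2.37% of the TPM and 64.4 ± 0.0837% of the counts. Lrp8-209, a 3291-base model annotated as a decay target that includes all 4 cassette exons, had 4.78 TPM in replicate 1 and 8.72 TPM in replicate 2, and by the kallisto layout 6.38 TPM in replicate 1 and 10.6 TPM in replicate 2. It was higher in replicate 2 in both quantifications, while the TPM of the whole gene was slightly lower there. The deposited posterior SD of its count was 81.5 around 300 counts in replicate 1 and 82.8 around 624 counts in replicate 2.

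For each of the 9 members, the share of TPM on models other than protein-coding ones was larger than their share of counts. The median share on protein-coding models was 95.6% of counts over the 9 members and 95.3% over detected nuclear coding genes. By counts, the members below 90% were Lrp8, at 76.8 ± 3.92%, and Lrp5, at 86.5 ± 4.34%. Of 64 annotated member transcripts, 32 held at least 5% of their gene's mean TPM in either table, and 5 were listed at 0 in all tables.

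**Figure D3:**
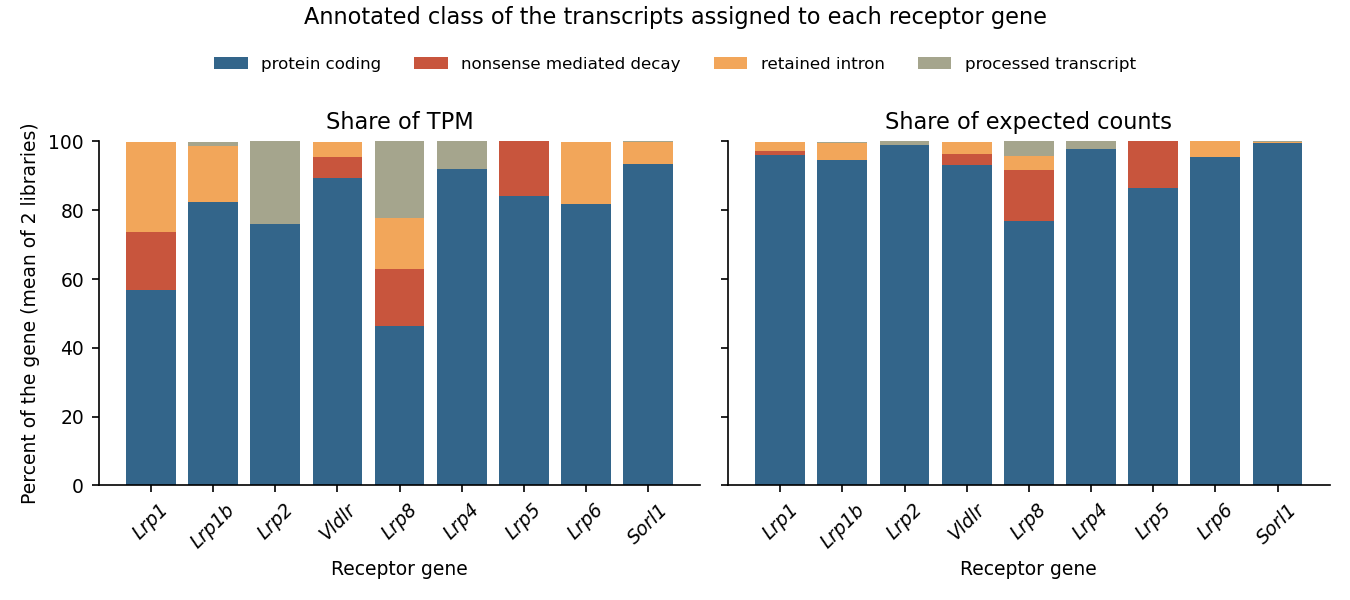
Percent of each receptor gene on annotated transcript classes, as the mean of the 2 libraries, by share of TPM (left) and by share of expected counts (right). Lrp1 has 57.0% of its TPM but 96.2% of its counts on protein-coding models, and Lrp8 has the smallest protein-coding share on both scales.

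Lrp4 is the agrin receptor of the neuromuscular junction, where it activates the kinase MuSK, and in the hippocampus it is known from astrocytes and from synapse formation in mouse. Its tail motif search found 1 copy of NPxY, on the plus strand, shown with the motif in capitals for comparison with the reelin receptors.
Lrp4, chr2:91508512-91508541: acctatagcAACCCCTCCTACcgaacttcc
The gene (ENSMUSG00000027253.15, chr2:91457511-91513779) had 13.7 TPM in replicate 1 and 12.5 TPM in replicate 2, from 1911 expected counts in replicate 1 and 2123 in replicate 2. It was assigned almost wholly to Lrp4-201, with 97.7 ± 0.182% of counts and 91.9 ± 4.07% of TPM. Agrn, the agrin gene, was higher than its receptor, with 58.9 TPM in replicate 1 and 54.8 TPM in replicate 2. Dok7, a MuSK adaptor, had 10.5 TPM in replicate 1 and 7.0 TPM in replicate 2. Musk itself was near the detection threshold, with 1.23 TPM in replicate 1 and 0.830 TPM in replicate 2.

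Lrp5 and Lrp6 are co-receptors of Wnt proteins with Frizzled receptors, and their tails are phosphorylated at repeated PPPSP motifs that dock Axin. The motif, read as PPPSP or PPPTP, occurred 3 times among the last 200 codons of each. It occurred in 81 of 21733 genes searched, or 0.373%, and once in another member, Lrp2. The copy nearest the end of each protein is shown because the co-receptors share it at nearly the same place, from codon 1605 of 1614 in Lrp5 and codon 1604 of 1613 in Lrp6. Both are on the minus strand, with the motif codons in capitals.
Lrp5, chr19:3585042-3585068: ttcccgCCCCCACCGTCCCCCtgcacg
Lrp6, chr6:134450798-134450824: tacccgCCACCACCCTCCCCCtgcacg

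Lrp5 (ENSMUSG00000024913.16, chr19:3584828-3686564, minus strand) had 6.58 TPM in replicate 1 and 6.15 TPM in replicate 2, from 609 expected counts in replicate 1 and 674 in replicate 2. Lrp6 (ENSMUSG00000030201.15, chr6:134446476-134566965, minus strand) had 21.4 TPM in replicate 1 and 22.1 TPM in replicate 2, from 2643 expected counts in replicate 1 and 3104 in replicate 2. Lrp6 was the higher co-receptor in each library, at 3.43 ± 0.241 times the TPM of Lrp5 in the gene table and 4.28 ± 0.410 times in the kallisto layout. Between the full-length models Lrp6-201 and Lrp5-201 the ratio was 2.73 ± 0.0815, and 2.75 ± 0.0492 in the kallisto layout. Lrp6-201 held 93.8 ± 0.505% of Lrp6 counts. The short model with the most TPM was Lrp6-203, an incomplete model of 722 bases, 670 of them in the exons of Lrp6-201. It had 42.7 counts and 3.50 TPM in replicate 1, and 63.1 counts and 4.53 TPM in replicate 2. It held 18.4 ± 2.92% of Lrp6 TPM, and 25.1 ± 0.271% in the kallisto layout. Lrp6-205, a single-exon model of 941 bases with 878 bases outside the exons of Lrp6-201, had 39 counts in replicate 1 and 32 counts in replicate 2.

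Lrp5 had 15.7 ± 4.56% of its TPM on decay models. These were Lrp5-203, with 0.960 TPM in replicate 1 and 0.600 TPM in replicate 2, and Lrp5-204, with 0.290 TPM in replicate 1 and 0.170 TPM in replicate 2. Lrp5-203 lies wholly within the exons of Lrp5-201 and was listed at 0 in the kallisto layout of both libraries, so its level depended on the quantification. Lrp5-204 was higher in that layout, with 0.611 TPM in replicate 1 and 0.499 TPM in replicate 2, and made up the 10.8 ± 0.937% of Lrp5 TPM on decay models there.

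Genes of the Wnt pathway differed in level by role. The intracellular components were highest, with 11 of 11 detected and a median of 22.3 TPM, close to the level of Lrp6. Ctnnb1, beta-catenin, had 238 TPM in replicate 1 and 246 TPM in replicate 2, and Axin2, a Wnt target and inhibitor, had 15.4 TPM in replicate 1 and 13.0 TPM in replicate 2. Of 10 Frizzled receptors 8 were detected, with a median of 2.96 TPM, and Fzd3 was the highest with 14.4 TPM in replicate 1 and 17.4 TPM in replicate 2. Of 19 Wnt ligands 7 were detected, with a median of 0.760 TPM, and Wnt7b was the highest with 18.7 TPM in replicate 1 and 21.8 TPM in replicate 2. Both Fzd3 and Wnt7b stood below Lrp6 in each library, though the range of Wnt7b across the libraries overlapped that of Lrp6.

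Regulators of the co-receptors were mostly low. Of 8 antagonists of the Dickkopf, sclerostin and Kremen families 3 were detected. Dkk3, a divergent Dickkopf, was the highest with 104 TPM in replicate 1 and 119 TPM in replicate 2. Kremen1, a co-receptor of Dickkopf proteins, had 6.74 TPM in replicate 1 and 6.73 TPM in replicate 2. Sostdc1, also a choroid plexus marker, had 4.03 TPM in replicate 1 and 2.28 TPM in replicate 2. Kremen1 was thus nearly equal in the libraries, and Dkk3 and Sostdc1 lay on opposite sides. Of 9 genes of the R-spondin arm 6 were detected, among them Rspo2, with 5.41 TPM in replicate 1 and 8.14 TPM in replicate 2, and its log2 ratio was -0.59. Mesd, the chaperone that folds Lrp5 and Lrp6, had 26.3 TPM in replicate 1 and 33.0 TPM in replicate 2.

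Sorl1, or SorLA, is a sorting receptor that combines class A repeats with a VPS10 domain and returns the amyloid precursor protein from endosomes to the Golgi. Its tail binds the retromer through the motif FANSHY, which was found once among its last 200 codons and in no other of the 21733 genes searched. NPxY was found in 6 of the 9 members, and not in this window of Sorl1, Lrp5 or Lrp6. The FANSHY site is shown because it sets Sorl1 apart from the other members. It is on the minus strand, with the motif codons in capitals.
Sorl1, chr9:41969684-41969713: agcgctTTCGCCAACAGCCACTACagctcc
The gene (ENSMUSG00000049313.8, chr9:41964720-42124297, minus strand) had 69.4 TPM in replicate 1 and 75.2 TPM in replicate 2, from 13565 expected counts in replicate 1 and 16819 in replicate 2. It was the second member by level, with 1275 detected nuclear coding genes above it. Sorl1-201 held 99.6 ± 0.0368% of its counts and 93.5 ± 0.251% of its TPM.

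The distance between Lrp1 and Sorl1 depended on the short Lrp1 models. By gene, Lrp1 stood at 2.03 ± 0.111 times the TPM of Sorl1, and at 1.70 ± 0.167 times in the kallisto layout. Between the full-length models Lrp1-201 and Sorl1-201 the ratio was 1.17 ± 0.0466, and 1.19 ± 0.0531 in the kallisto layout. Lrp1-201 remained the higher of the pair in each library and each quantification.

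Sorting partners of Sorl1 were all detected, 8 of 8 genes for retromer and GGA adaptors, with a median of 38.4 TPM. Vps29 had 84.8 TPM in replicate 1 and 91.2 TPM in replicate 2, and Vps35, the core retromer subunit, had 50.3 TPM in replicate 1 and 53.0 TPM in replicate 2. Of the other VPS10 receptors, Sort1, sortilin, was higher than Sorl1, with 134 TPM in replicate 1 and 145 TPM in replicate 2. Sorcs2 and Sorcs3 were lower, at means of 20.7 ± 0.672 TPM and 14.4 ± 1.21 TPM. Sorcs1 had 6.11 TPM in replicate 1 and 4.46 TPM in replicate 2.

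Adaptors that bind the tails of the family were detected for 16 of 16 listed genes, with a median of 24.1 TPM. Dlg4, which encodes PSD-95, had 302 TPM in replicate 1 and 321 TPM in replicate 2. Apbb1, the adaptor Fe65 that links Lrp1 to the amyloid precursor protein, had 142 TPM in replicate 1 and 154 TPM in replicate 2. Mapk8ip1, the JIP scaffold, had 127 TPM in replicate 1 and 132 TPM in replicate 2.

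**Figure D4:**
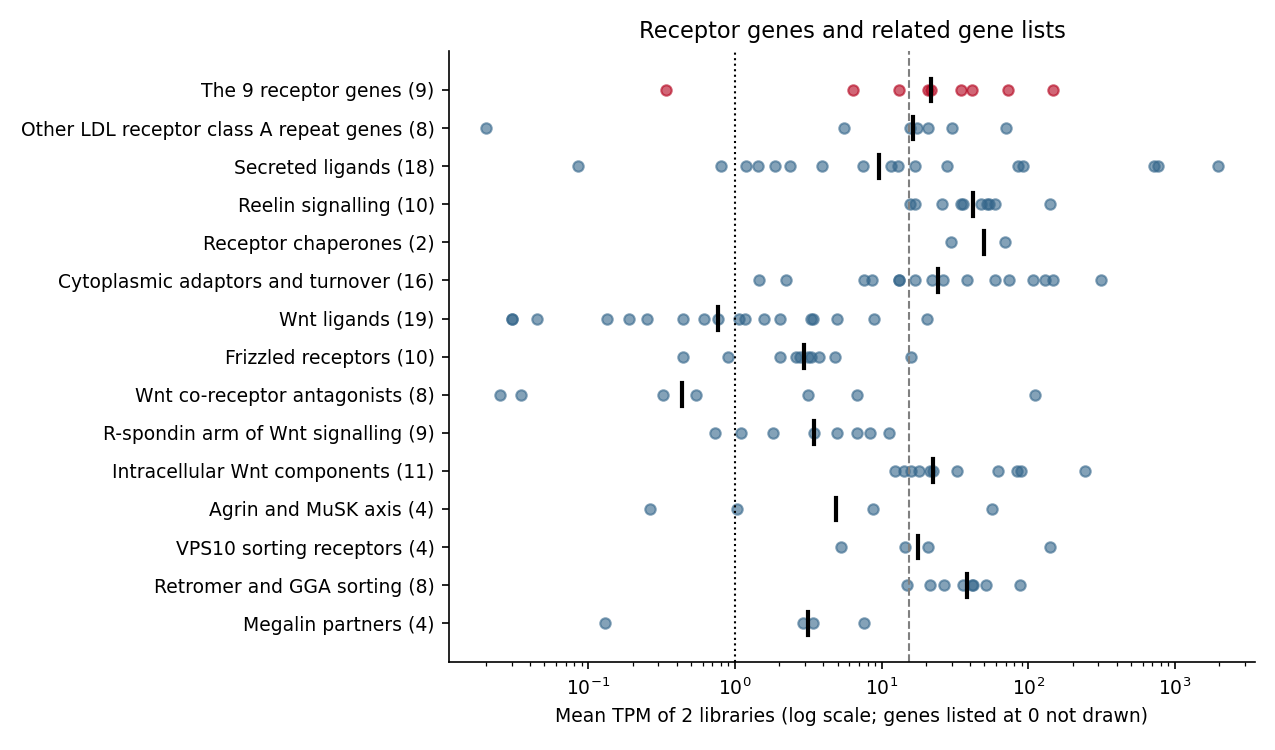
Mean TPM over both libraries (log axis) of the 9 receptor genes (red) and of each related list (blue), 1 point a gene, with black bars at list medians and list sizes in parentheses. The dotted line is 1 TPM and the dashed line 15.3 TPM, and the median of the Wnt ligands, 0.760 TPM, lies below both.

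Between the libraries, 0 of the 9 members passed 2-fold on scaled counts, against 2.66% of the 18906 genes averaging 10 or more counts. By the deposited TPM itself Lrp2 passed, at a log2 ratio of -1.06, through the 1.47 counts of its short model. With 1 library on each side there is no test of this difference. The size of the log2 ratio had a median of 0.0454 over the members, against 0.122 over all these genes and 0.0758 over the 8228 genes averaging 500 or more counts. The median log2 ratio was -0.04 over the members and -0.01 over all genes, with 2 members, Lrp4 and Lrp5, higher in replicate 1 and 7 in replicate 2. Scaled by the spike-ins, all 9 were higher in replicate 2, and the median over all genes was -0.07.

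The members farthest from 0 were Vldlr, at -0.12 with a 95% counting interval of -0.20 to -0.04, and Sorl1, at -0.12 with an interval of -0.15 to -0.09. For Lrp1 the value was -0.04 with an interval of -0.06 to -0.01. These were the 3 members whose exact binomial interval left out 0, and such intervals cover counting error only. The share of all genes whose interval left out 0 was not computed, so the count of 3 members does not set the family apart. This count depended on the scaling, with 2 members by library size alone, where Lrp1 was at -0.01 with an interval of -0.04 to 0.01, and 6 by spike-in scaling. Excitatory neuron markers lay on the same side, with 0 of 8 above 0 and a median of -0.15, and oligodendrocyte markers on the other, with 8 of 8 above 0 and a median of 0.26. Astrocyte and microglia markers also lay mostly above 0, with 7 of 8 each and medians of 0.07 for astrocytes and 0.14 for microglia. The interneuron, oligodendrocyte precursor, endothelial, and mural and fibroblast lists had medians between -0.11 and 0.03. The part of these cell types in the values of the members was not tested.

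**Figure D5:**
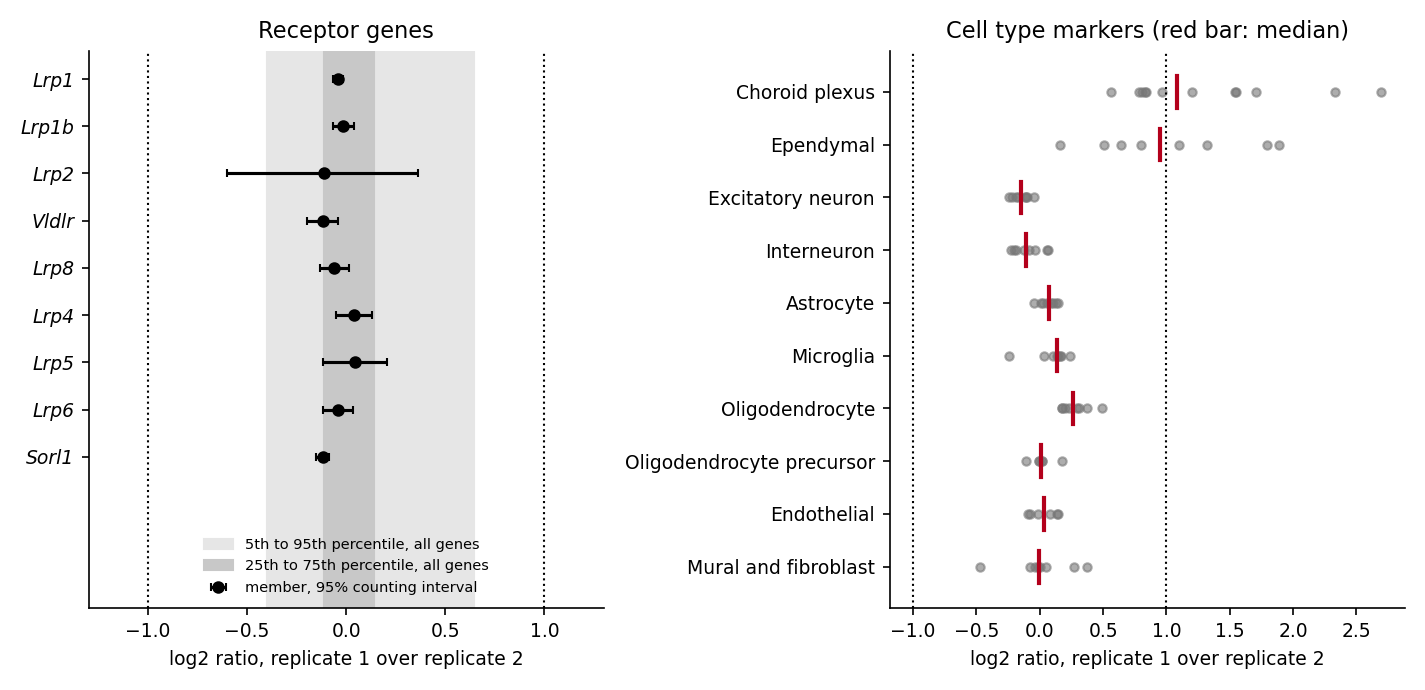
Left, log2 ratio of replicate 1 over replicate 2 for each receptor gene with its 95% counting interval, over the central ranges of all 18906 genes (grey bands), with dotted lines at 2-fold. Right, the same ratio for each cell type marker gene (grey) with list medians (red); choroid plexus markers have a median of 1.08, and no receptor gene is past 0.12 in size.

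Reads shared with other genes could be judged from the deposited posterior SD of the gene count, which was 0 in both libraries for 8 of the 9 members. For Lrp1b it was 0.380 in replicate 1 and 0.420 in replicate 2. Lrp1b shares 99 exon bases on its own strand with the misc_RNA gene Gm27348, which had 0 counts in replicate 1 and 3.17 counts in replicate 2. Sorl1 shares 185 exon bases with the antisense gene Gm16214, which had 0 counts in both libraries.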

How the data were processed

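Per the file headers and readme, the authors deposited expected counts, their posterior SD, TPM, its credibility bounds and effective lengths per gene and transcript in the column layout of RSEM, and, in the layout of kallisto, TPM and estimated counts for transcripts only, on mm10 with GENCODE M21. The aligner was not given in the sources used here, nor were program versions, and RSEM and kallisto name layouts only. Rows without a gene name, phiX and spike-ins (26249 rows and 96 ERCC rows) held 0.481% of counts in replicate 1 and 0.454% in replicate 2, and stayed out of library sizes and statistics, though TPM sums over them.

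Levels are the mean and SD of deposited TPM over n = 2 libraries. For ratios, expected counts were rounded and scaled with TMM (edgeR 4.0.16, R 4.3.3), with a prior count of 2, over genes averaging 10 or more counts, and called past 2-fold. With 1 group of 2 libraries no hypothesis test was run. Counting intervals are exact Clopper-Pearson intervals at 95% for the share of a gene's counts in replicate 1. Reads carry no molecular identifiers. The ratio was checked on simulated counts for the comparison of replicate 1 with replicate 2: all 200 changed genes were called, and 0.818% of 18720 unchanged genes. The changed genes were set at a log2 ratio of 2 in size and mean counts of at least 100. Their change lay well past the 2-fold call, so the check could hardly miss them. The share of unchanged genes called depends on the spread chosen for the simulation. In the data 2.66% of genes were called.

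Coding sequences came from GENCODE M21 transcripts, and NPxY, PPPSP (or PPPTP) and FANSHY were searched by translation of the coding strand, in the longest complete coding sequence of each nuclear coding gene. Tables and figures used Python 3.11.15 with pandas 2.3.3, numpy 2.4.6, scipy 1.17.1 and matplotlib 3.10.9. Named genes are all members, transcripts with at least 5% of a member's mean TPM in either table, and from each list the 3 highest genes and the gene with the largest ratio at a mean count of at least 100, described as far as the text needs. The members and lists were chosen with earlier results of these data known. Alternatives were DESeq2 1.42.0 size factors, library size, spike-in scaling, another prior count, the kallisto layout, other thresholds, rescaled TPM and, added after seeing the data, the ratio of deposited TPM without a pseudocount.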

Additional observations from a re-analysis of the deposited data

How the results depend on the processing

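The number of members detected stayed at 8 with TPM thresholds of 0.5 and 5, in the kallisto layout and without replicate 1 or 2. No member passed 2-fold under DESeq2 size factors, library size alone, spike-in scaling, a prior count of 0.5, kallisto counts, no count filter or a TPM ratio with a pseudocount of 1, which holds the ratio of a gene as low as Lrp2 near 0. In the TPM ratio with no pseudocount, chosen after seeing the data, 1 member passed, Lrp2 at -1.06. The summed TPM of 357 ± 4.00 moved to 305 in the kallisto layout and to 798 when rescaled to nuclear protein-coding genes, which held 44.7 ± 0.964% of all TPM, and lay between 354 and 360 without either replicate. Single levels moved past 1 SD for 7 of 9 members in the kallisto layout, where 7 of 9 were lower. With 2 libraries, leaving out 1 cannot move a mean past its SD, and Lrp2, at 0.340 TPM, came to 0.460 TPM without replicate 1 and 0.220 TPM without replicate 2. The share of TPM on the leading transcript moved for 7 of 9 members when taken from counts, higher for all 9. Signs of log2 ratios changed for Lrp4 and Lrp5 under spike-in scaling (-0.02 and -0.01), which put the median of all genes at -0.07 against -0.01 with TMM, for Lrp1b with library size alone (0.01) and for Lrp8 in the TPM ratio (0.07 with the pseudocount, 0.08 without it). No paired analysis was possible because there is 1 group. Depth limits Lrp2 most, at 67 counts in replicate 1 and 83 in replicate 2. Shares of transcripts and cassette exons rest on the annotated models, and for short models inside a longer one the counts in each model are uncertain.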

Other observations

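Other genes with LDL receptor class A repeats were measured beside the family. Of 8 listed, 6 were detected, with a median of 16.4 TPM. Lrp11 had 66.4 TPM in replicate 1 and 74.1 TPM in replicate 2, close to Sorl1. Lrp3 had 29.0 TPM in replicate 1 and 31.1 TPM in replicate 2, and Lrp12 had 18.4 TPM in replicate 1 and 22.7 TPM in replicate 2. Ldlrad3 was lower, with a mean of 5.54 ± 0.431 TPM. Of the 8, 6 averaged 10 or more counts, and 0 of these 6 passed 2-fold between the libraries, against 2.66% of all genes tested.

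Antisense transcripts at the receptor genes were nearly uncounted. Lrp8os2, antisense to Lrp8, had 3 counts in replicate 1 and 9 counts in replicate 2, and Lrp8os1 had 0 counts in both. Gm16217, antisense to Lrp1, had 1 count in replicate 1 and 0 counts in replicate 2. Neither Lrp8os2 nor Gm16217 shares exon bases with its receptor gene.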
